A study of Mus musculus with 3 samples.

Results

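The falling sites are 475 cytosines of mouse oocyte RNA whose 5-methylcytosine (m5C) level was lower in metaphase II (MII) oocytes than in germinal vesicle (GV) oocytes. They were chosen by these levels: a site had 100 or more reads in both oocyte lists and an MII level at least 3 percentage points (here points) under the GV level. They make up 6.45% of the 7359 sites with 100 or more reads in both lists, and the 3 lists of the series together hold 40298 distinct sites. They lay in 418 genes on 20 chromosomes, with 369 genes holding 1 falling site, 42 holding 2, 6 holding 3 and 1 holding 4, and 467 of the 475 were in protein-coding genes. The fall itself is what the choice used, so it is described below with no test.

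RNA bisulfite sequencing was used, in which an unmethylated C is converted and read as T while m5C is read as C, so that the m5C level is the share of unconverted reads at a site. There was 1 library per stage, all from wild-type C57BL/6J mice, so no value has a replicate check. Intervals of a level, or of a difference in level, at 1 site cover counting error of reads alone. Intervals of shares and medians over sites take the sites as independent, though sites share libraries and often genes. GV oocytes, which are fully grown and have not resumed meiosis, were taken from females of 7 to 8 weeks 48 h after pregnant mare serum gonadotrophin (PMSG) at 10 IU. MII oocytes, which have matured and await fertilization, were taken 12 h after 5 IU of human chorionic gonadotrophin (hCG) in females given 10 IU of PMSG, and 1-cell embryos 24 h after 5 IU of hCG in mated females given 5 IU of PMSG. The age of 7 to 8 weeks holds for the females of all 3 groups. These ages and doses are those of the labels, and the methods of the study give a wider age range for the oocyte donors and a higher hCG dose. The labels name polyadenylated RNA and the methods RNA depleted of ribosomal RNA. The conversion text differs between oocytes and embryos, and library and stage cannot be told apart.

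In mRNA, m5C is placed by the methyltransferases NSUN2 and NSUN6. NSUN2 sites, called Type I, are followed by a G-rich stretch, and NSUN6 sites, called Type II, lie in the motif CUCNA. As in the methods of the study, a site in CUCNA was labelled Type II here and every other site Type I. Type I is thus a label by exclusion, and the enzyme of a site was not tested. Maternal mRNAs are made while the oocyte grows, are stored with little translation, and are then translated or degraded in waves during maturation and after fertilization. No transcription takes place during maturation, so the amount of a transcript changes by decay, while polyadenylation changes the length of its tail.

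The lists summed to 4475058, 5285011 and 2616279 reads at called sites in GV oocytes, MII oocytes and 1-cell embryos, with a median of 121, 107 and 58.0 reads per site. Sites were listed from a level of 10.0% and from 20 reads with at least 5 unconverted, so a site that went under these limits in MII oocytes left the list and could not be a member. Of 12 oocyte marker genes, 7, 9 and 11 had a listed site in the order of the stages, and Zp2, Oosp1 and Padi6 had none in either oocyte list. Of 10 cumulus or granulosa cell markers, none had a site in the GV oocyte or 1-cell embryo list, and 2 had one in the MII oocyte list, Amh at 96 reads and Cyp19a1 at 49 reads. No falling site lay in an oocyte marker gene. None could lie in a cumulus or granulosa cell marker, since these had no site in the GV oocyte list. A gene without a called site may still be expressed.

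The sites of greatest fall are shown here in their sequence, read 5′ to 3′ from the spliced transcript of the GRCm38 genome, with 12 bases on each side and the site in capitals. They are shown because they had the largest falls among the sites with 100 or more reads in both oocyte lists.
Gsk3b: guguugcagaugCcagcuuaggaag
Ccni: aggcugacuacuCggggugagacua
Trim35: ccucaugaaacaCaagagccgaaaa
Calu: ugcucaccagggCuugagcuuugcc
Fkbp5: ccuuggccaaggCcagguuaucaaa
Rpl34: aaccccuggcaaCaggauuguuuac
Slc7a1: uccuaggauaagCguggacacgccc
Irf2bp2: agcccgaacccuCggcgugcacacg
Hnrnpul1: guggcccgagacCggaguaguggcu
Chst11: augagacgggacCaggugacagaca
All 10 were Type I sites, that is, none lay in CUCNA. The bases after the C differ among them, from the run of G at Ccni to the pair of A at Trim35.

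The greatest fall was at Gsk3b, the glycogen synthase kinase of Wnt and insulin signalling, in the 3′ untranslated region (UTR) in exon 11 of 11 (chromosome 16, position 38241294, plus strand). Its level was 72.9% of 166 reads in GV oocytes (95% interval 65.5% to 79.5%, exact binomial as for all levels), 39.8% of 133 reads in MII oocytes (31.5% to 48.7%) and 100% of 20 reads in 1-cell embryos (83.2% to 100%). The embryo level thus lay above both oocyte levels, and its 20 reads are the fewest a listed site can have. Ccni, which encodes cyclin I, had its site in the 3′ UTR in exon 7 of 7 (chromosome 5, position 93182935, minus strand). Its level was 56.9% of 204 reads in GV oocytes, 26.0% of 219 in MII oocytes and 100% of 50 in 1-cell embryos. The interval of the embryo value (92.9% to 100%) did not overlap that of either oocyte. Trim35, a RING-type ubiquitin ligase, had its site in the coding sequence (CDS) in exon 4 of 6 (chromosome 14, position 66307031, plus strand). Its level was 68.8% of 138 reads, 38.3% of 175 and 70.6% of 34 in the order of the stages, so the embryo value was close to that of GV oocytes.

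The other sites of greatest fall lay in genes of varied function. Calu, encoding the calcium-binding secretory pathway protein calumenin, went from 81.0% of 237 reads to 54.2% of 155 in its 3′ UTR (chromosome 6, position 29375706, plus strand) and was not listed in 1-cell embryos. Fkbp5, a co-chaperone of steroid receptors, went from 46.0% of 139 reads to 19.4% of 309 in the CDS in exon 7 of 14 (chromosome 17, position 28429362, minus strand) and stood at 100% of 21 reads in 1-cell embryos. Rpl34, a protein of the large ribosomal subunit, had the deepest coverage of the 10, with 64.7% of 900 reads, 39.1% of 657 and 78.0% of 50 (chromosome 3, position 130729132, minus strand). Its intervals were 61.4% to 67.8%, 35.4% to 43.0% and 64.0% to 88.5%, and the embryo interval overlapped that of GV oocytes and not that of MII oocytes. Slc7a1, a transporter of cationic amino acids, had 47.6% of 105 reads, 23.1% of 173 and 39.1% of 46 in its 3′ UTR. Irf2bp2, a transcriptional corepressor, had 37.9% of 132 reads and 14.7% of 225 and was not listed in 1-cell embryos. Hnrnpul1, an RNA-binding protein of the nucleus, had 66.5% of 239 reads, 44.1% of 288 and 100% of 28. Chst11, a sulfotransferase of chondroitin synthesis, had 54.0% of 202 reads, 31.8% of 465 and 50% of 20. The embryo level was above the MII level at all 8 of these 10 sites that were listed in 1-cell embryos, and above the GV level at 6 of the 8.

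**Figure D1:**
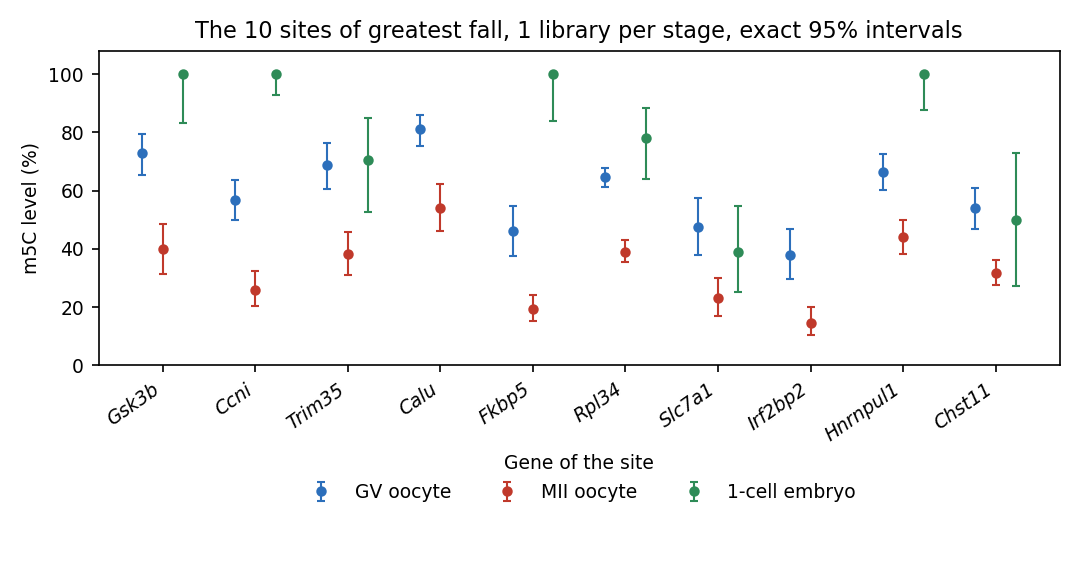
m5C level in percent (vertical axis) at the 10 sites of greatest fall (horizontal axis, by gene) in GV oocytes, MII oocytes and 1-cell embryos, with exact 95% binomial intervals of the reads of 1 library per stage. The MII value is the lowest at each site, the embryo values of Gsk3b, Ccni, Fkbp5 and Hnrnpul1 are at 100%, and Calu and Irf2bp2 have no embryo value.

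Over all falling sites the median level was 25.8% (23.8% to 28.4%, order-statistic interval) in GV oocytes and 19% (17.7% to 20.8%) in MII oocytes. The median difference was -5.16 points, with quartiles of -7.37 and -3.89 and a range of -33.0 to -3.00. Most falls were small: 225 of the sites were under 5 points, 180 were from 5 to under 10, 58 from 10 to under 20, and 12 were 20 or more. The median of all 7359 sites was 5.19 points higher in MII oocytes, from 19.1% to 25.2%, and 1207 were lower in MII oocytes by any amount. With listed MII levels starting at 10.0%, a site needed a GV level of at least 13% to be a member. Of the 5791 sites with such a level 8.20% were falling sites, and the remaining 5316 are called the other eligible sites here. Of 6795 GV oocyte sites with 100 or more reads and such a level, 154 were not in the MII oocyte list and 850 were there with fewer than 100 reads, so sites with a greater fall may be among those.

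**Figure D2:**
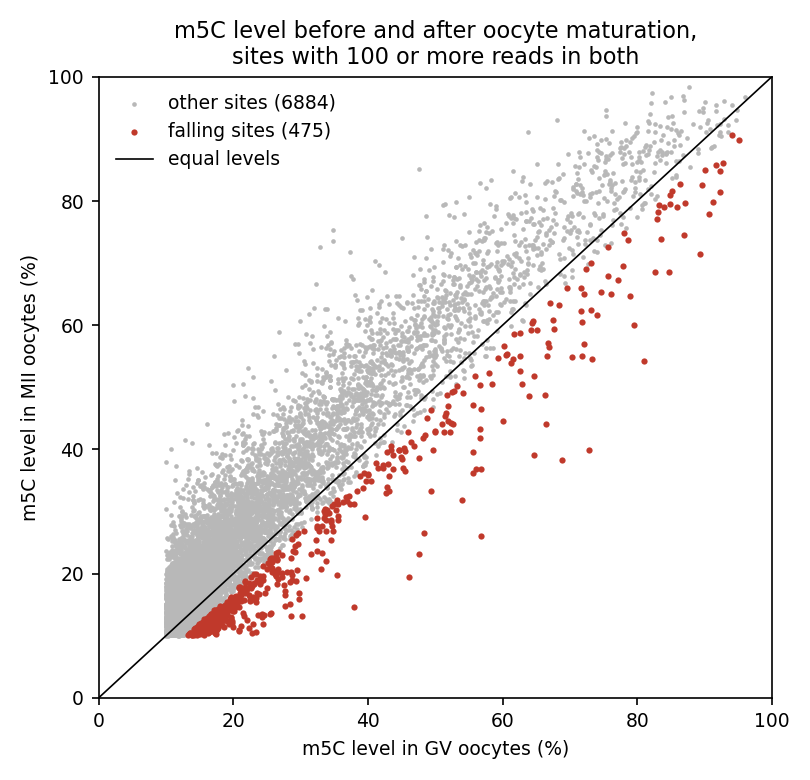
m5C level in percent in GV oocytes (horizontal axis) and MII oocytes (vertical axis) at the 7359 sites with 100 or more reads in both, each point a site, with the 475 falling sites in red and a line of equal levels. The main body of sites lies above the line, the falling sites lie under it by construction, and the empty margins below 10.0% come from the listing limit.

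The members at the limit show how close the choice ran. Just inside were Mrpl44, a mitochondrial ribosomal protein, with 43.5% of 207 reads against 40.5% of 126, Pdcd6 with 15.7% of 281 against 12.7% of 245, and Hdlbp, the RNA-binding protein vigilin, with 49.3% of 304 against 46.3% of 313. Just outside were Coro2b with 13.9% of 281 reads against 10.9% of 294, Hcfc1 with 17.9% of 140 against 14.9% of 148, and one site of Mast2 with 18.4% of 369 against 15.5% of 465. These 6 sites differ by less than their counting intervals on both sides of the limit.

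Counted with Fisher's exact test, run on the 12954 sites that both oocyte lists hold and with Benjamini-Hochberg adjustment, 68 of the 475 were called lower in MII oocytes, where the background is 0.965% of all shared sites (125). The choice of members used this contrast, so nothing is read from that count. The 95% interval of the difference (Newcombe) lay below 0 at 116 members and reached 0 at the others. Members were less deeply read than the rest, with a median of 195 reads in GV oocytes and 177 in MII oocytes against 296 and 252 at the other eligible sites. The share of sites that fell was 11.0% where the shallower oocyte library had 100 to under 150 reads, 7.99% from 150 to under 250, 4.29% from 250 to under 500, 1.84% from 500 to under 1000 and 1.98% (11 of 555) at 1000 or more. By GV level the share was 6.57% from 13% to under 20%, 8.82% to under 30%, 7.24% to under 50%, 12.0% to under 75% and 16.1% (35 of 218) from 75%.

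The falling sites with most reads in the shallower oocyte library give the narrowest values. Gnas, encoding the alpha subunit of the stimulatory G protein, had 18.1% of 2595 reads in GV oocytes (16.6% to 19.6%), 13% of 2409 in MII oocytes (11.6% to 14.4%) and 41.7% of 520 in 1-cell embryos (37.5% to 46.1%). Pfn1, the actin-binding profilin, had 73.1% of 2156 reads (71.2% to 75%), 62.5% of 2544 (60.5% to 64.3%) and 78.2% of 675 (74.9% to 81.3%). At both sites the embryo level was the highest of the 3 stages. Sdc1, a heparan sulfate proteoglycan of the cell surface, had its site in the 5′ UTR in exon 1 of 5 (chromosome 12, position 8771567, plus strand). It had 28.6% of 1457 reads, 13.1% of 3120 and 26.8% of 478, so the embryo value was close to that of GV oocytes. Pcbp1, a protein that binds C-rich RNA, had a Type II site with 78.7% of 1226 reads and 73.8% of 1181 and was not listed in 1-cell embryos.

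Rpph1, the RNA component of ribonuclease P, carried a pair of falling sites in its single noncoding exon (chromosome 14, positions 50807590 and 50807634, minus strand). The first had 17.4% of 2044 reads in GV oocytes, 10.2% of 2996 in MII oocytes and 19.1% of 6667 in 1-cell embryos. The second had 16.2% of 1627, 10.5% of 2494 and 24.0% of 7268. Both were lowest in MII oocytes, and unlike most members their coverage was highest in the embryo library. Rpph1 is a short structured RNA made by RNA polymerase III and has no poly(A) tail.

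Ribosomal protein transcripts held many of the deeply read members. In the list of mitochondrial and ribosomal protein genes 17 of 79 sites fell, 21.5% (13.1% to 32.2%, exact binomial) beside 6.45% over all sites, and its median change was 0.868 points beside 5.19. A split of this list was made after its values were seen and is hence given with no test. It does not cover every site of the list. It put 8 falling sites among the 15 sites of cytosolic ribosomal proteins (7 of 9 genes). Both gene counts include the pseudogene Rps27a-ps2, and the 9 include Rps4l, whose sites lay in noncoding exons. Of these 15 sites 13 were lower in MII oocytes, and the median change was -4.37 points. Among the 63 sites of mitochondrial proteins 9 fell, and the median change was 2.48 points. Beside Rpl34, the cytosolic members were Rplp0 (23.6% of 1846 reads, 19% of 2028 and 49.3% of 381 in the order of the stages), Rpl23 (23.4% of 1294, 16.1% of 1205 and 27.9% of 219) and 2 sites of Rps9. The first Rps9 site had 27.7% of 994 reads, 16.6% of 918 and 37.9% of 224, and the second 14.9% of 1730, 10.5% of 2108 and 27.8% of 443. Rps14 had 18.8% of 2307 reads, 13.5% of 2028 and 25.6% of 266. All 6 cytosolic members listed in 1-cell embryos were called higher there than in MII oocytes by Fisher's exact test, where the background over all sites that both lists hold is 51.3% called higher and 2.45% called lower. Rps27a (22.0% of 710 and 12.5% of 559) and its pseudogene Rps27a-ps2 (19.3% of 425 and 11.9% of 385) were not listed in 1-cell embryos. The reads of this pair can be split between near-identical copies, as those of other ribosomal protein genes with processed pseudogenes can, so these values are uncertain. The coverage ratios of the 15 sites, MII over GV and relative to the median of all sites, ran from 0.810 to 1.38 with a median of 0.994.

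The mitochondrial members belonged to the respiratory chain, its assembly and the mitochondrial ribosome. Cox7c, a subunit of cytochrome c oxidase, had 2 neighbouring sites, with 51.9% of 653 reads, 47.0% of 443 and 50.5% of 111 at one and 35.4% of 681, 31.8% of 471 and 32.7% of 110 at the other. Ndufa5, Ndufs3 and Ndufs8 of complex I, Sdhd of complex II, the assembly factor Cox18, and Mrps30 and Mrpl44 of the mitochondrial ribosome had 1 site each, with falls of 3.00 to 6.83 points. Of the 7 mitochondrial sites listed in 1-cell embryos, 5 were higher there than in MII oocytes and 2 were called so, beside the 51.3% of all shared sites.

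Other gene lists held falling sites at shares whose intervals, with 1 exception, included that of all sites. The exception was the list of oocyte-specific and maternal-effect genes, where 1 of 106 sites fell, 0.943% (0.0239% to 5.14%). That site lay in Ago2, the slicer of RNA interference, with 16.6% of 199 reads in GV oocytes and 11.9% of 159 in MII oocytes. The meiosis and cell cycle list had 2 of 75 (2.67%), Ccni and Cdkn1c, and the zinc finger (Zfp) list 2 of 92 (2.17%), Zfp511 and the Type II site of Zfp598. No site of the 16 in the list of m5C writers, readers and TET enzymes fell, and these lay in 1 gene. The RNA processing and translation list had 16 of 176 (9.09%), the ubiquitin and proteasome list 26 of 328 (7.93%), the cytoskeleton list 12 of 163 (7.36%), the kinase and phosphatase list 15 of 314 (4.78%), the chromatin list 13 of 273 (4.76%), and the vesicle traffic list 11 of 236 (4.66%). Solute carriers had 11 of 100 (11.0%, 5.62% to 18.8%). Over all lists together 124 of 1900 sites fell, 6.53%. The lists were not matched for reads. Over all sites the share that fell was 11.0% with 100 to under 150 reads in the shallower oocyte library and 1.98% with 1000 or more. A list of deeply read sites, such as one of abundant oocyte transcripts, is thus not comparable with the share of all sites at every depth.

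**Figure D3:**
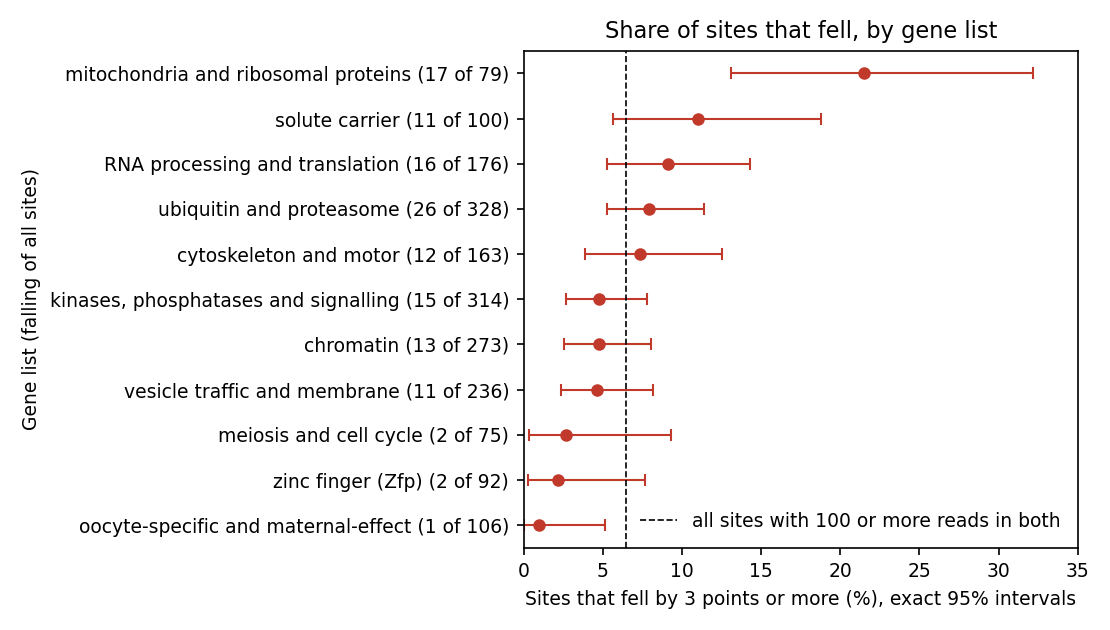
Share of sites in percent that fell by 3 points or more (horizontal axis) in each gene list with more than 1 gene (vertical axis, with falling and all sites), with exact 95% binomial intervals and a dashed line at the 6.45% of all sites. The interval of the mitochondria and ribosomal protein list lies above the line, and that of the oocyte-specific and maternal-effect list lies below it. The lists are not matched for reads.

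Translation initiation factors made up 6 of the 16 sites in the RNA processing and translation list. Eif4g2, which drives cap-independent initiation, had 45.5% of 991 reads, 36.6% of 593 and 48.1% of 154 in the order of the stages. The scaffold Eif4g1 had 27.3% of 209 and 20.1% of 149 at one site, and 27.2% of 335, 23.0% of 204 and 31.6% of 38 at the other. Eif4b (13.9% of 703, 10.1% of 416 and 13.3% of 113), Eif3d (21.2% of 415, 16.6% of 307 and 16.7% of 48) and Eif3h (34.7% of 375, 30.9% of 204 and 46.9% of 128) had falls of under 5 points. The splicing factor Srsf1 had 2 falling sites in its 3′ UTR, a Type I site with 56.7% of 397 and 41.8% of 239 and a Type II site with 28.6% of 294 and 20.3% of 295, and neither was listed in 1-cell embryos. In this list 3 of the 10 sites with an embryo value were called higher than in MII oocytes and none lower, beside 51.3% and 2.45% of all shared sites.

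The proteasome appeared through Psmb1 and Psmb3 of its core, Psmc3, Psmc4, Psmd3 and Psmd7 of its regulatory particle and the activator Psme4. Psmb1 had 56.0% of 1220 reads, 51.8% of 711 and 12.0% of 50, the lowest embryo value relative to MII among members with 50 or more embryo reads. Psmc3, by contrast, had 15.4% of 518, 11.7% of 376 and 54.8% of 31. Other members of the ubiquitin and proteasome list included Usp3, a histone deubiquitinase. Usp3 had 95.1% of 285, 89.8% of 325 and 100% of 64, the highest GV level of all members. Of the 16 sites in this list with an embryo value 8 were called higher than in MII oocytes and 2 lower, beside 51.3% and 2.45% of all shared sites.

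Amino acid and nutrient carriers were among the solute carrier members. Slc7a5, the light chain of the leucine transporter, had 2 falling sites, with 52.5% of 219, 49.3% of 217 and 100% of 40 at one and 24.0% of 150 and 18.3% of 175 at the other. The mitochondrial ADP/ATP carriers Slc25a4 (71.7% of 219, 62.3% of 191 and 64.5% of 62) and Slc25a5 (67.5% of 554, 60.9% of 598 and 80.1% of 256) and the citrate carrier Slc25a1 (27.6% of 250, 18.2% of 253 and 44.4% of 36) had 1 each. The embryo value was above the MII value at all 9 solute carrier members that had one, as it was at 85.2% of all listed members, and 6 were called higher, beside 51.3% of all shared sites.

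Signalling members beside Gsk3b were Akt1, the kinase that phosphorylates GSK3, with 43.1% of 780, 33.3% of 432 and 22.1% of 86, and Smad4, the common mediator of TGF-beta signals. Smad4 had a Type II site with 66.8% of 552, 56.5% of 356 and 62.8% of 78. Stat3 had 39.3% of 239 and 33.8% of 151 in its 3′ UTR, and 17.2% of 501, 14.1% of 482 and 39.2% of 209 in its 5′ UTR. In the chromatin list the H3K4 demethylase Kdm1a (43.1% of 204, 35.8% of 204 and 42.4% of 144) and the bromodomain protein Brpf3 (42.9% of 105 and 33.9% of 109 at its larger fall) led. In the vesicle list Sec61a1, the pore of the endoplasmic reticulum translocon, went from 84.8% of 355 to 68.6% of 382, and Copg1, a COPI coat subunit, from 24.3% of 218 to 13.5% of 244 with 34.6% of 52 in 1-cell embryos. In the cytoskeleton list Map1b, a microtubule-binding protein, led with 63.9% of 310 and 48.6% of 212.

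Cebpb, an intronless transcription factor gene with all 4 of its sites among the members, is shown with its sites in capitals since no other gene had as many. Their positions on chromosome 2, plus strand, are 167689427, 167689428, 167689454 and 167689627 in the CDS.
Cebpb at 167689427: cucaaggcggagCcgggcuucgaac
Cebpb at 167689428: ucaaggcggagcCgggcuucgaacc
Cebpb at 167689454: gcggacugcaagCgcgcggacgacg
Cebpb at 167689627: cgccgccugcuuCgcggggccgccg
The first pair are adjacent bases and share nearly all their reads. The levels in GV and MII oocytes were 20.4% of 578 and 14.7% of 757, 15.5% of 587 and 10.5% of 774, 29.2% of 636 and 18.9% of 832, and 56.1% of 722 and 36.9% of 852. In 1-cell embryos the sites at 167689427, 167689454 and 167689627 stood at 33.3% of 27, 22.9% of 35 and 100% of 30. All 4 sites had more reads in MII than in GV oocytes, at 1.18 to 1.32 times.

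Other genes held several members. Ubxn1, which binds ubiquitin chains, had 3 of 3 sites fall, from 56.8% of 118 to 46.6% of 116, from 16.5% of 370 to 11.3% of 364 and from 32.4% of 281 to 27.4% of 237. In 1-cell embryos these were at 100% of 27, 19.6% of 112 and 33.3% of 30. Plxnb2, a semaphorin receptor, had 7 sites with enough reads, all 7 lower in MII oocytes by 0.267 to 5.84 points, 3 of them members. Its coverage ratios were low, from 0.554 to 0.789, and none of its members was listed in 1-cell embryos. Poldip3, a factor of mRNA export and translation, had 2 sites in its 3′ UTR with falls of 19.5 and 16.0 points, from 79.5% of 234 to 60% of 215 and from 55.6% of 259 to 39.6% of 260. Tmed2, a cargo receptor between endoplasmic reticulum and Golgi, had falls of 18.7 and 13.3 points at adjacent bases.

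The members of a gene did not always share direction with its other sites. Lamc1, the gamma chain of laminin, had falls of 12.8, 8.46 and 3.45 points at 3 sites and was 5.19 and 9.95 points higher in MII oocytes at 2 others. The site nearest to its greatest fall was one of these, with 28.7% of 136 against 33.9% of 124. Rela, a subunit of NF-kappa B, had falls of 8.42, 5.95 and 4.86 points toward its 3′ end and was 1.67 and 15.5 points higher at 2 sites toward its 5′ end. Atp13a1 and Sidt2 also held 3 members each and other sites with higher MII levels. In the 267 member genes with other sites of 100 or more reads in both oocyte lists, these 791 other sites had a median change of 4.24 points, beside 5.78 points for the 6093 sites of genes without a falling site. Of the 791, 148 were lower in MII oocytes and 473 (59.8%) were at least 3 points higher, beside 71.4% in the genes without a falling site. Falls of 3 points or more are left out of both sets by the choice, so a majority of higher sites is in part built in.

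Coverage of a site, set between libraries, follows the amount of the transcript together with the depth of the library. If RNA was selected by its poly(A) tail, as the labels have it, the length of the tail can also enter, and its part was not tested. In pooled oocytes fewer cells of a type and less RNA per cell cannot be told apart. The median coverage ratio, MII reads over GV reads, was 0.937 (0.912 to 0.962) at the falling sites, with quartiles of 0.799 and 1.08, and 0.881 (0.876 to 0.887) at the other eligible sites. The median of all 7359 sites, 0.884, serves as reference. A ratio of 1.5 or more times the reference was found at 32 falling sites, 6.74% (4.65% to 9.38%), beside 0.978% (0.731% to 1.28%) of the other eligible sites. A ratio of at most 1/1.5 of the reference was found at 4.21% of the falling and 4.63% of the other eligible sites. The falling sites thus stood apart at the high end of the ratio and not at the low end.

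Read the other way, 32 of the 96 sites at 1.5 or more times the reference fell, 33.3% (24.0% to 43.7%), beside 6.10% (5.56% to 6.67%) of the 7263 below it. From 1.5 to under 2 times 25 of 87 fell, and from 2 times on 7 of 9. Deeper sites gave a like contrast. Among sites with 200 or more reads in both lists 13 of 36 fell (36.1%, 20.8% to 53.8%), beside 3.69% (3.15% to 4.30%) of the 4334 below 1.5 times. Among those with 300 or more 5 of 14 fell (35.7%, 12.8% to 64.9%), beside 2.68%. Across all 7359 sites the relation was weak, with a Pearson r of -0.0933 between the log2 ratio and the change of level. It describes sites that share their libraries and often their genes.

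**Figure D4:**
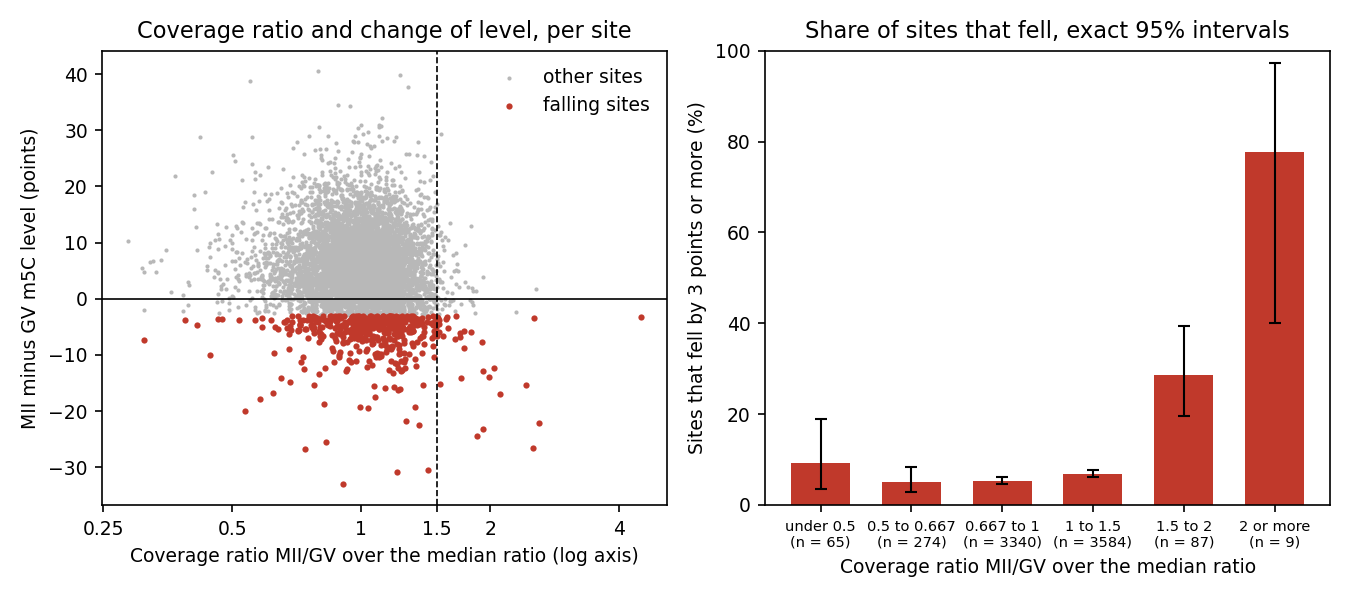
Left, change of the m5C level in points (vertical axis) against the coverage ratio MII over GV relative to the median of all sites (horizontal log axis), each point a site, falling sites in red, with a dashed line at 1.5. Right, share of sites in percent that fell by 3 points or more in 6 ranges of that ratio, with exact 95% binomial intervals: it is between 5.11% and 9.23% below 1.5, 28.7% from 1.5 to under 2 and 77.8% from 2.

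The genes at these high ratios were named after their values were seen, and their functions were varied. At 2 or more times the reference the falling sites were those of Htra1, a secreted serine protease, at 4.49 times (16.4% of 122 reads and 13.2% of 485), Chst11 at 2.60, Actb, the cytoplasmic actin, at 2.53, Fkbp5 at 2.51, Sdc1 at 2.42, and a pair in the glypican Gpc1 at 2.10 and 2.04. Actb had 14.6% of 787, 11.2% of 1758 and 49.8% of 259 in the order of the stages. The Gpc1 sites had 30.2% of 106, 13.2% of 197 and 100% of 26 at one and 22.8%, 10.4% of 182 and 17.5% of 40 at the other. The 2 sites of such a ratio that were not members lay in Gm47287 and in Fscn1, an actin-bundling protein. The Gm47287 site was lower in MII oocytes by 2.43 points, short of the limit (17.1% of 10197 and 14.7% of 20674). The Fscn1 site was higher (20.5% of 210 and 22.2% of 474).

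From 1.5 to under 2 times the falling sites included Abhd2 (29.8% of 208, 15.8% of 366 and 41.0% of 39), the ATP citrate lyase Acly (29.8% of 104, 16.9% of 177 and 53.8% of 52), the AP-1 factor Jund (16.4% of 250, 10.5% of 399 and 52.2% of 46) and the antiproliferative factor Btg1 (29.4% of 136, 20.6% of 209 and 22.7% of 44). Serpine2, a secreted inhibitor of serine proteases, had 24.1% of 444, 18.9% of 625 and 71.0% of 69, and the sulfatase Sulf2 16.5% of 182, 13.2% of 242 and 29.5% of 44. Of the 32, 11 had falls of 10 or more points, among 70 such falls in all. Of the 22 listed in 1-cell embryos 20 were higher there than in MII oocytes and 15 higher than in GV oocytes. Beside these ratios stands the measurement that 2 of 10 cumulus or granulosa cell markers had a called site in the MII oocyte list, at 145 reads in all, and none in the other lists. Its part in the result was not tested.

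In class and sequence the falling sites were close to the other eligible sites. Type II sites made up 32 of the 475, 6.74% (4.65% to 9.38%), beside 5.31% (4.72% to 5.94%), and all 32 read CUCCA, as did 269 of the 282 other eligible Type II sites. G was found at position +2 after the site in 65.3% (60.8% to 69.5%) and 64.7%, and at +3 in 64.8% and 61.9%, and the mean number of G from +1 to +4 was 2.11 ± 0.975 (SD, n = 475) and 2.11 ± 0.967 (SD, n = 5314). The site was unpaired in the predicted fold with 50 bases on each side in 43.4% (38.9% to 48.0%) and 40.7%, and the median fold energy was -30.8 and -30.9 kcal/mol. By place 358 sites lay in the CDS, 75.4% (71.2% to 79.2%) beside 73.2%, 69 in the 3′ UTR (14.5% beside 15.7%), 39 in the 5′ UTR (8.21% beside 9.97%) and 9 in noncoding exons (1.89% beside 1.09%). The last exon held 24.0% and 26.6%. These intervals of the falling sites included the share of the other eligible sites. At position +4 the share of C was 13.9% (10.9% to 17.3%) beside 10.7%, outside the interval, and that of G was 45.9% (41.3% to 50.5%) beside 50.2%. The unconverted background of the gene was recovered from the deposited p-values. Those under 1e-300 were not used, which left 366 of the 418 member genes in GV oocytes and 391 in MII oocytes. For the other eligible sites 2392 and 2374 genes were left. The background was higher in member genes at both stages, with medians of 0.360% and 0.465% beside 0.277% and 0.397%. Its change from GV to MII oocytes was 0.104 points (0.0863 to 0.117) beside 0.109 points. The cut depends on reads, in which the sets differed.

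The Type II members of greatest fall are shown with the motif CUCNA marked, since the sites shown above do not carry it. Its letters are in capitals other than N, and the site is the first of them.
Hif1a: uagagagcaauuCUCcAagcccucc
Rcor1: aucuucccuuucCUCcAaggaagag
Ralgds: cauccuccccuaCUCcAgugaggac
Nbr1: gagaagcuugucCUCcAgaagccac
Hif1a, the oxygen-regulated transcription factor, had its site in exon 12 of 15 (chromosome 12, position 73942061, plus strand) with 66.3% of 303 reads in GV oocytes, 48.8% of 289 in MII oocytes and 100% of 52 in 1-cell embryos. A Type I site upstream in the same exon, at position 73942001, had 28.5% of 466, 22.5% of 466 and 70.4% of 54. Both of these members were thus lowest in MII oocytes and highest in 1-cell embryos, with embryo intervals (93.2% to 100% and 56.4% to 82.0%) above those of GV oocytes. Rcor1, a corepressor that binds KDM1A, had 74.0% of 131, 61.7% of 141 and 100% of 26. Ralgds, an exchange factor for Ral, had 76.1% of 113, 65.0% of 117 and 80.4% of 46. Nbr1, an autophagy receptor, had 62.6% of 447, 52.6% of 175 and 48.3% of 29, with a coverage ratio of 0.391.

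Over the 32 Type II members the median level was 28.6% in GV and 20.0% in MII oocytes, and the median fall was 5.42 points. They lay in 31 genes, with 22 sites in the CDS, 8 in the 3′ UTR and none in the 5′ UTR. Of the 23 listed in 1-cell embryos 19 were higher there than in MII oocytes and 14 higher than in GV oocytes. Over all 397 Type II sites with enough reads the median change was 3.24 points, beside 5.30 points for Type I sites.

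The embryo library was not used in the choice of members. The deposited 1-cell embryo list was used for these values, and it differs from the list published with the study. Of the 475 sites 263 were in the 1-cell embryo list, 55.4% (50.8% to 59.9%), beside 72.5% (71.2% to 73.7%) of the other eligible sites. Coverage goes with this: among sites with 100 to under 150 MII reads 35.4% (28.1% to 43.2%) of the members and 50.2% of the others were listed, from 150 to under 250 55.6% (48.0% to 62.9%) and 66.2%, from 250 to under 500 78.1% (68.5% to 85.9%) and 79.6%, and from 500 on 85.7% (69.7% to 95.2%) and 92.4%. The gap was thus seen at shallow sites, and the intervals of the deeper sites included the other share. Of the 212 members not listed 170 lay in genes with another site in the embryo list. Listed members had a median of 52.0 embryo reads, beside 82.0 at the other eligible sites.

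At the 263 listed members the median level was 30.8% in GV oocytes, 23.3% in MII oocytes and 43.5% in 1-cell embryos. At the 3852 listed other eligible sites it was 24.4%, 32.4% and 49.2%. Sites under the listing limits in 1-cell embryos have no value here, so the embryo levels of both sets are cut off from below. With at least 5 unconverted reads required, this cut lies at a higher level where reads are few, and listed members had fewer embryo reads. The shares and differences below hold for listed sites only. The 1-cell level was above the MII level at 224 of 263 members, 85.2% (80.3% to 89.2%), beside 80.0% of the others, and the median difference was 15.4 points (13.3 to 17.4), beside 12.4 points (11.9 to 13). It was above the GV level at 192, 73.0% (67.2% to 78.3%), beside 90.3%, with a median difference of 8.67 points (6.75 to 11.2) beside 19.6 points (18.9 to 20.3). At 32 members it lay between the oocyte levels, and at 39 it was at or under the MII level. The members were chosen by low MII and high GV levels, which both comparisons share, so a larger difference from MII and a smaller one from GV are in the direction that the choice gives.

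**Figure D5:**
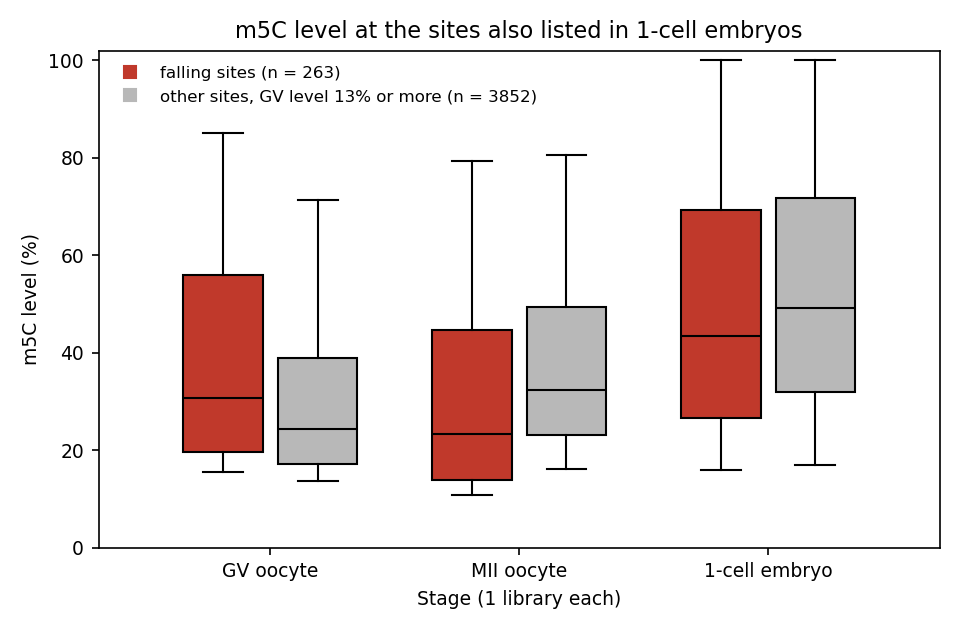
m5C level in percent (vertical axis) in GV oocytes, MII oocytes and 1-cell embryos at the 263 falling sites and 3852 other eligible sites that the 1-cell embryo list also holds. Boxes give quartiles and median over sites, and whiskers the 5th and 95th percentiles. The falling sites have medians of 30.8%, 23.3% and 43.5%, and the other sites of 24.4%, 32.4% and 49.2%.

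By Fisher's exact test on reads, adjusted over all 8015 sites shared by the MII oocyte and 1-cell embryo lists, 145 of the 263 members were called higher in 1-cell embryos (55.1%), where the background is 51.3%, and 6 were called lower (2.28%), where it is 2.45%. Both shares were near the background. Between GV oocytes and 1-cell embryos, over 6478 shared sites, 107 members were called higher (40.7%), where the background is 66.1%, and 9 lower (3.42%), where it is 1.05%. The choice of members used the GV and MII levels. Fewer higher and more lower calls against GV oocytes are in the direction that the choice gives, so nothing is read from those counts. More higher calls against MII oocytes would be in its direction too. These tests compare single libraries and take reads as independent.

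Among members with 50 or more embryo reads, the 1-cell level stood furthest above the MII level at Ccni (74.0 points), Serpine2 (52.1 points), Arhgap10 (51.3 points) and the Type II and Type I sites of Hif1a (51.2 and 47.8 points). Arhgap10 had 56.8% of 264, 36.8% of 125 and 88.1% of 59. The lowest embryo levels relative to MII oocytes were at Psmb1, Use1, Akr1a1, Aes and Akt1. Use1, a SNARE of retrograde traffic, had 74.6% of 409, 65.3% of 311 and 35.1% of 74 (adjusted p = 1.46e-05 between MII oocytes and 1-cell embryos by Fisher's exact test). Akr1a1, an aldehyde reductase, had 46.4% of 112, 41.1% of 124 and 19.2% of 52 (adjusted p = 0.0124 by the same exact test). Aes, a Groucho-type corepressor, had 72.1% of 272, 56.9% of 367 and 35.8% of 106 (adjusted p = 5.36e-04, same exact test), and was thus lower at each later stage. At Akt1 the embryo level was 11.2 points under that of MII oocytes, which did not pass (adjusted p = 0.0749, same exact test). It was 21 points under that of GV oocytes, and no test is given for this since the choice favoured a high GV level.

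A level of 100% in 1-cell embryos was found at 27 of the 263 members, 10.3% (6.88% to 14.6%), beside 6.46% (5.71% to 7.29%) of the other eligible sites, and 18 of the 27 had under 50 embryo reads. The most deeply read were Slc16a10, a transporter of aromatic amino acids (83.9% of 299, 79.0% of 371 and 100% of 98), Nr1h2, an oxysterol receptor (78.1% of 196, 74.8% of 135 and 100% of 80), and Med24 of the Mediator complex (92.3% of 155, 84.9% of 172 and 100% of 69). Tnrc18 differed most among them, with 17.2% of 134, 12.5% of 176 and 100% of 32. By size of fall, the median embryo level was 35.2% for falls under 5 points, 43.9% for 5 to under 10, 64.7% for 10 to under 20 and 83.1% for 20 or more, beside median GV levels of 20.1%, 28.6%, 55.8% and 56.8%. All 10 listed members with a fall of 20 or more points were higher in 1-cell embryos than in MII oocytes, and 7 of them were higher than in GV oocytes.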

How the data were processed

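The authors trimmed reads with cutadapt 1.13 and Trimmomatic 0.36 and aligned them with HISAT2 2.10 and Bowtie2 2.2.9 to the converted GRCm38 genome and transcriptome (versions as in the submitters' processing notes). For each site the authors deposited the count of C or T reads, not normalized, and the m5C level as a fraction, given here in percent. The deposited p-value comes from the authors' one-sided binomial test, which sets a site against its gene's conversion rate. It was used here only to recover that rate. The lists hold called sites alone.

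Unconverted reads were level times coverage. Sites were placed in GENCODE M21 transcripts of their gene, CDS before UTR, and folded with ViennaRNA 2.7.2 at 37 °C. All 475 members matched. Python 3.11.15, pandas 2.3.3, scipy 1.17.1 and pysam 0.24.0 were used. Stages were compared with two-sided Fisher's exact tests over all sites of each pair of lists, called at an adjusted p under 0.05. The calling was tested on simulated data. Reads carry no molecular identifiers, so intervals at single sites cover counting error only. The named sites were the 10 of greatest fall, the 10 with most reads in the shallower oocyte library, the 5 highest and 5 lowest in 1-cell embryos relative to MII oocytes with 50 or more reads, those of the 10 genes with most members, the 5 Type II sites of greatest fall, the leading site of each list, and 3 on each side of the limit. Others were named after their values were seen. The members and lists were chosen with earlier results of these data known. Alternatives were the read minimum, the size of the fall, the order of annotation, the fold window, 1 value per gene and reads divided by 5.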

Additional observations from a re-analysis of the deposited data

How the results depend on the processing

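No paired analysis was possible because each stage has 1 library. Of 38 alternatives 22 stayed within the error of the value reported, 16 moved further and none changed direction. The number of falling sites was 996 with 50 or more reads, 173 with 200 or more, 250 for a fall of at least 5 points, 272 for a fall of at least 20% of the GV level and 116 where the 95% interval of the difference lay below 0. The CDS share was 80.3% with 200 or more reads and 62.7% with UTR placed before CDS. The median coverage ratio was 0.963 with 200 or more reads. The median 1-cell minus MII difference was 12.7 points with 50 or more embryo reads. With members limited to those 116, an alternative chosen after seeing the data, the ratio was 0.992 and the difference 19.2 points. With all reads divided by 5, as if each molecule had been read 5 times, calls among members dropped to 3 between GV and MII oocytes, 25 between MII oocytes and 1-cell embryos and 19 between GV oocytes and 1-cell embryos. With only sites of 50 or more reads tested, the latter pair of counts were 87 and 69 of 145 members.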
